A study of Mus musculus with 20 samples.

Results

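The 39 genes described here are genes of mitosis and of the G2/M phase of the cell cycle, followed through embryonic stem cells of the mouse as they left pluripotency under combinations of signals. The members were taken by symbol from a list of names drawn up with earlier results of these data known, and all 39 were found among the 27998 genes of each of the 3 single-cell tables. They were followed as summed counts of each treated population and as a score of each cell. Of the 39, 6 are cyclins, Cdk1 or its subunit Cks2, and 6 are mitotic or checkpoint kinases. A further 3 belong to the ubiquitin ligases of mitotic entry and exit, 5 to the centromere and kinetochore, 2 to the chromosomal passenger complex and 4 to the mitotic kinesins. The others comprise 7 genes of spindle assembly, 4 of chromosome structure and 2 of cytokinesis.

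Entry into mitosis is driven by the kinase Cdk1 bound to a cyclin, and exit by the anaphase-promoting complex, a ubiquitin ligase that marks cyclins for destruction. Transcripts of these genes are low in G1, rise through S phase and peak in G2 and mitosis. In dividing cells their level in a population therefore follows the share of cells in G2 and mitosis, and pluripotent stem cells are known for a short cell cycle with little G1.

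All cells were of 1 male embryonic stem cell line of the strain 129P2/OlaHsd. Each cell carried barcodelets, short synthetic RNAs transfected into a well so that a cell can be traced to its treatment after all wells are pooled. Per the labels' protocols, cells left medium with LIF and 2 inhibitors, passed through serum-free medium and then received signals for 24 h. In the germ layer experiment, 32 conditions combined RA against CD 2665, an antagonist of RA receptors (RA plus and minus), the GSK3 inhibitor GSK3iXV against IWR1 (Wnt plus and minus), Activin A against A8301 (Tgfb), Bmp4 against Dorsomorphin (Bmp) and Fgf2 against UO126, a MEK inhibitor (Fgf). GSK3 inhibition activates Wnt signalling and IWR1 blocks it. In the mesendoderm experiment, all cells were first held for 24 h with CD 2665, Activin A, a GSK3 inhibitor, Dorsomorphin and Fgf2, and then received combinations of 7 signals, with Notch and Shh added. In the mixed experiment, wells with that mesendoderm start and wells with an undirected start received the 5 signals, and 8 control wells of each start received no combination. The deposited tables for those last experiments give the signals as plus or minus without compounds. In bulk, 2 libraries of cells 24 h after barcodelet transfection and 2 at 72 h were set against 2 libraries of untransfected cells.

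Each single-cell experiment was 1 droplet library of polyA RNA, and UMI counts, which count molecules, were summed over the cells assigned to a condition or well. Assigned cells numbered 4350 of 8421 in the germ layer, 2899 of 12781 in the mesendoderm and 4869 of 5944 in the mixed experiment, with medians of 15314, 11700.0 and 19105 UMIs. The members held 0.442%, 0.346% and 0.358% of these UMIs. Populations of at least 5 cells were used: all 32 germ layer conditions (70 to 230 cells), 300 of 384 mesendoderm wells (5 to 29 cells) and 142 of 144 mixed wells (5 to 97 cells). Conditions and wells of an experiment shared 1 library, so p-values measure the spread between them and not between repeats of the experiment. Germ layer conditions had 1 population each, and their spread is that around an additive fit of the 5 signals. The libraries shared 151, 64 and 111 cell barcodes by pair. General pluripotency genes such as Pou5f1 and Sox2 summed to 526.2 to 2246 CPM (counts scaled to 1000000 per population) over germ layer conditions, and genes of fibroblast feeders to 6.76 to 79.2 CPM.

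Promoters of G2/M genes are known for the CHR element, bound by the DREAM and MuvB complexes, and for CCAAT boxes, bound by NF-Y. RefSeq promoters of build GRCm38.p6, from 250 bases before to 50 after a gene's start, were found for 34 of the 39 members. TTTGAA or TTCGAA, the letters searched for the CHR, stood in 26 of 34 (76.5%) on either strand, against 19.4% of all 27025 promoters. CCAAT stood in 26 of 34 (76.5%) on either strand, against 37.9% of all promoters, and 2 or more copies stood in 20 of 34 (58.8%), against 12.2%. A match of an E2F site (TTTCCCGC, TTTGGCGC, TTTCGCGC or TTTGCCGC) stood in 1 of 34 (2.94%), against 2.32%. TTCGAA reads alike on both strands and was counted once at a place, and the CHR and CCAAT letters shared a base in the promoter of Cdca8 alone, where both were counted. The sequences below belong to the 4 members that were lower with Wnt plus in all 4 settings tested (Cdk1, Mki67, Cdca3 and Top2a), to Nusap1, which fell most with Wnt in the germ layer, and to Kif20b, which rose with Wnt in the mixed experiment. Capitals mark the CHR letters and CCAAT, or ATTGG and TTCAAA where the match is on the other strand.
Cdk1 (chr10:69352863-69353162, minus strand; the kinase of mitotic entry): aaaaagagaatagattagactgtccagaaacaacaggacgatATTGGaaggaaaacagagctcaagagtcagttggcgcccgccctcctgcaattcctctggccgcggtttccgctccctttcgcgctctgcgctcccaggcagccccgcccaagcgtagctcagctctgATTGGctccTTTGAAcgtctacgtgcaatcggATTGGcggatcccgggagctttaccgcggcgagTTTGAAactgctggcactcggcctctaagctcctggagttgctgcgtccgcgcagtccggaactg
Mki67 (chr7:135716330-135716629, minus strand; the Ki-67 coat protein of mitotic chromosomes): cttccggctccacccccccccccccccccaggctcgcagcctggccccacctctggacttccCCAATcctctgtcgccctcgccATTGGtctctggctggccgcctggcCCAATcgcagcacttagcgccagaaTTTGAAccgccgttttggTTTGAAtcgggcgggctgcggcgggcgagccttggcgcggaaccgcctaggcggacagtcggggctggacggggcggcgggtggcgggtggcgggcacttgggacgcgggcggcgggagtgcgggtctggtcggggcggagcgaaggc
Cdca3 (chr6:124829926-124830225, plus strand; a trigger of mitotic entry): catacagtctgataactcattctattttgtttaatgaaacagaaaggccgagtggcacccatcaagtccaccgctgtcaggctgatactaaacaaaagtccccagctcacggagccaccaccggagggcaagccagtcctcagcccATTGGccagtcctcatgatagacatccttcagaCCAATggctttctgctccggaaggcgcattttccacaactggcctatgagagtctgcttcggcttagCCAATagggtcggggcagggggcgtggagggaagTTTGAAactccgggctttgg
Top2a (chr11:99024140-99024439, minus strand; the topoisomerase that untangles sister chromatids): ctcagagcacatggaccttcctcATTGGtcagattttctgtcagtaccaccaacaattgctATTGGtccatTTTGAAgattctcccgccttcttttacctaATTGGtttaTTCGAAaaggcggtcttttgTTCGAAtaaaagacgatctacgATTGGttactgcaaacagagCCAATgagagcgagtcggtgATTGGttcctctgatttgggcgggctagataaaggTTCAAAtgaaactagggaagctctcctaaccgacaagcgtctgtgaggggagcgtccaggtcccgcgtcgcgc
Nusap1 (chr2:119618048-119618347, plus strand; a microtubule bundler of the spindle): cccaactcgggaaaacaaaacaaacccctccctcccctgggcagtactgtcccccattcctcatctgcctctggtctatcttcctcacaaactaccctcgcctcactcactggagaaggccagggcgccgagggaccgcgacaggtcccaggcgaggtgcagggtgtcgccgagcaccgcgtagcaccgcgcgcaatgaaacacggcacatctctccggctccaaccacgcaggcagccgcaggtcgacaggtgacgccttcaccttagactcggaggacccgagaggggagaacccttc
Kif20b (chr19:34922108-34922407, plus strand; a kinesin of late mitosis): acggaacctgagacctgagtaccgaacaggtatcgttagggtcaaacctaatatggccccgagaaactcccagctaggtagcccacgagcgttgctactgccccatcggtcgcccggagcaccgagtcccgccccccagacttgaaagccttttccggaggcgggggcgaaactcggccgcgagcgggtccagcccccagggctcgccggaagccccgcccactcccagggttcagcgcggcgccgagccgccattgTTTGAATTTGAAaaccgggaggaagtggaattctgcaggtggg

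Cdk1 had 2 CHR and 3 CCAAT matches, Mki67 2 and 3, Cdca3 1 and 3, and Top2a 4 and 6. Kif20b had 2 CHR matches in direct succession and no CCAAT. Nusap1 had neither in this window, although its RNA moved with that of the others, as described below. In GENCODE vM21, Cdk1 (ENSMUSG00000019942.13) spans chr10:69335146-69352938, Mki67 (ENSMUSG00000031004.8) chr7:135689784-135716361 and Nusap1 (ENSMUSG00000027306.15) chr2:119618298-119651244. Some windows lie wholly inside the GENCODE span, as for Cdca3 (chr6:124829547-124833701), Cdca8 (chr4:124918465-124939311) and Kif2c (chr4:117159639-117182639). These windows, which are not at the GENCODE start, count in the shares above. Of the 39 members, 20 overlap another annotated gene and 10 one on their own strand. The sources used here do not say if genes were counted by strand, so the counts of members such as Nusap1 (Oip5), Ube2c (Tnnc2), Cdc20 (Elovl1), Ccna2 (Exosc9), Tacc3 (Tmem129) and Smc4 (Mir15b and Mir16-2) are uncertain to that extent.

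In the counts of single cells the members correlated weakly. With each cell thinned to 5000 UMIs, the median Spearman correlation over pairs of members was 0.045 in 4185 germ layer cells, 0.058 in 2708 mesendoderm cells and 0.036 in 4869 mixed cells. These correlations are descriptions across cells that share a library. The highest pair reached 0.24 to 0.26, and between 94.6% and 96.2% of pairs were positive. Members and 30 S phase genes, such as Mcm2 and Pcna, had median correlations of -0.01, -0.01 and 0.01 in the same cells. Pairs of S phase genes had medians of 0.033, 0.027 and 0.022. Many members had no UMI in most of the thinned cells, and the part of this in the low correlations was not tested. Against the sum of the other members, Ube2c, the E2 enzyme of the anaphase-promoting complex, correlated at 0.439, 0.388 and 0.364 in the germ layer, mesendoderm and mixed cells. Cks2 reached 0.396 and the kinetochore gene Cenpf 0.446 in mesendoderm cells. Gtse1, a microtubule-binding gene of G2, stayed at 0.034, 0.053 and 0.058, although it had a UMI in 22.7%, 19.2% and 19.7% of cells. Ttk, a checkpoint kinase, had a UMI in only 7.9% of mixed cells, so its 0.055 rests on 385 of 4869 cells.

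Genes of mitosis were lower with Wnt plus than with Wnt minus in each experiment. Log2 changes ran from -0.12 to -0.71 for the members that fell. A fall with plus cannot be told from a rise with minus in this comparison. In the germ layer experiment 0 of 39 members were higher and 16 (41.0%) lower with Wnt plus at an adjusted p under 0.05 (edgeR quasi-likelihood test). Of all 10614 genes tested, 23.9% changed and 11.9% were lower. The median log2 change was -0.13 over the members and 0.00 over all genes. The plot of fitted changes gives each member's value in the 4 settings.

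**Figure D1:**
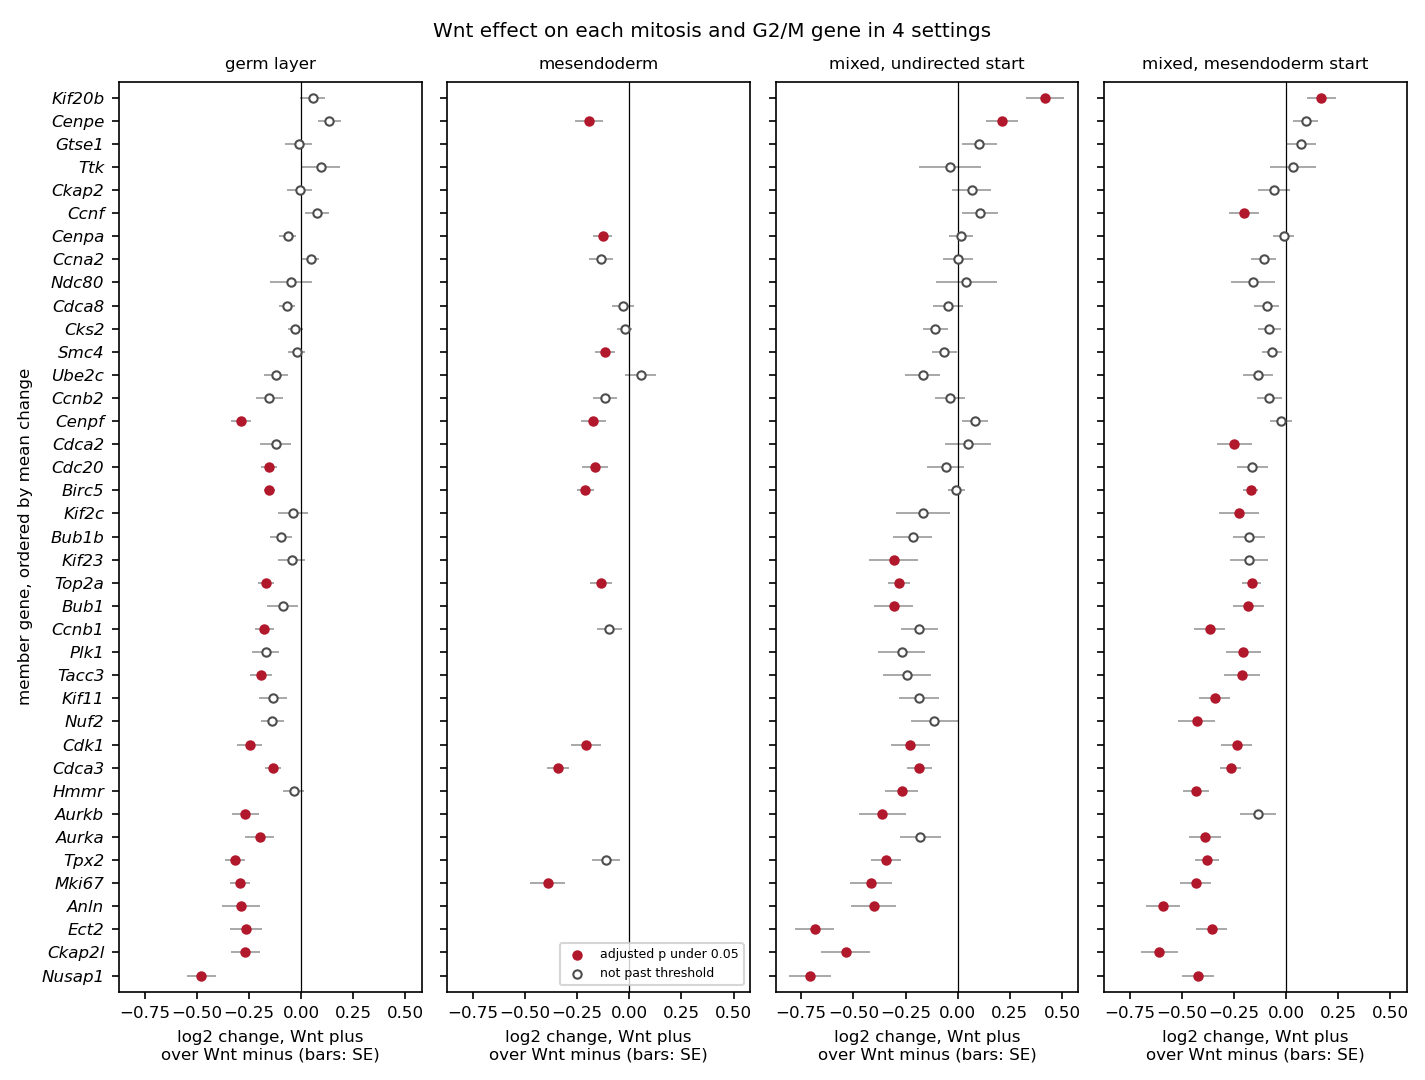
Log2 change with Wnt plus over Wnt minus (x axis, with the standard error) for each of the 39 members (y axis, ordered by mean change) in the germ layer, mesendoderm and both mixed settings. Filled red points passed an adjusted p of 0.05 and open points did not. Nusap1, Ckap2l and Mki67 lie left of 0 in the settings where they were tested, and Kif20b lies right of 0 in both mixed settings.

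Nusap1 ranged from 51.8 to 79.1 CPM (median 57.7) over the 16 Wnt plus conditions, against 60.4 to 108 CPM (median 85.0) over the 16 Wnt minus conditions. It averaged 61.3 ± 8.21 CPM with Wnt plus and 84.6 ± 14.7 CPM with Wnt minus (SD, n = 16 each), a log2 change of -0.48 (SE 0.07, edgeR adjusted p = 1.99e-06). The groups overlapped, and Nusap1 was lower in 15 of 16 pairs of conditions that differed in Wnt alone. Tpx2, which starts spindle microtubules and activates Aurora A, ranged from 80.3 to 115 CPM (median 98.8) with Wnt plus, against 99.7 to 147 CPM (median 119) with Wnt minus. Its log2 change was -0.32 (SE 0.05, edgeR adjusted p = 3.33e-06), with 15 of 16 pairs lower and overlapping groups. Mki67 ranged from 46.6 to 69.9 CPM (median 59.3) with Wnt plus, against 60.8 to 85.1 CPM (median 70.6) with Wnt minus, and changed by -0.29 (log2, SE 0.05, edgeR adjusted p = 1.4e-05). It too was lower in 15 of 16 pairs. Its groups overlapped between 60.8 and 69.9 CPM, with each median just outside that overlap.

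The fitted falls of Cdk1 and Ccnb1 were smaller than those of Nusap1, Tpx2 and Mki67, and the difference was not tested. Cdk1 ranged from 113 to 161 CPM (median 140) with Wnt plus, against 132 to 228 CPM (median 162) with Wnt minus (log2 -0.25, SE 0.06, edgeR adjusted p = 0.00252). Ccnb1, the cyclin B that Cdk1 binds at mitotic entry, ranged from 129 to 175 CPM (median 143), against 124 to 209 CPM (median 168), with a log2 change of -0.18 (SE 0.05, edgeR adjusted p = 0.00419). Both were lower in 12 of 16 pairs, with groups that overlapped widely. Top2a changed by -0.17 (log2, SE 0.04, edgeR adjusted p = 0.00143) and was lower in 15 of 16 pairs. Birc5, the survivin subunit of the chromosomal passenger complex, averaged 372 ± 23.6 CPM with Wnt plus and 414 ± 23.2 CPM with Wnt minus (SD, n = 16 each). That log2 change of -0.15 (SE 0.03, edgeR adjusted p = 7.16e-05) was smaller than those above, yet Birc5 was lower in 16 of 16 pairs.

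In the mesendoderm experiment, where wells held few cells, 17 of the 39 members had enough counts for the test and 22 were not tested. Of the 17, 0 were higher and 10 lower with Wnt plus, against 39.6% of 2328 genes that changed and 19.6% that were lower. Mki67 ranged from 0 to 173 CPM (median 57.6) over 148 Wnt plus wells, against 0 to 234 CPM (median 72.7) over 152 Wnt minus wells. It averaged 59.1 ± 30.3 CPM with Wnt plus and 78.1 ± 43.0 CPM with Wnt minus (log2 -0.39, SE 0.08, edgeR adjusted p = 4.07e-05). Cdca3 averaged 142 ± 47.3 CPM with Wnt plus and 181 ± 58.8 CPM with Wnt minus, within ranges of 15.8 to 301 and 44.8 to 352 CPM (log2 -0.34, SE 0.05, edgeR adjusted p = 8.09e-09). Birc5 changed by -0.21 (log2, SE 0.04, edgeR adjusted p = 1.44e-06), Cdk1 by -0.21 (SE 0.07, edgeR adjusted p = 0.0113) and Top2a by -0.14 (SE 0.05, edgeR adjusted p = 0.0256). Ccnb1 changed by -0.10 (SE 0.06) and did not pass (edgeR adjusted p = 0.201). The ranges of the wells overlapped almost fully for every one of these members, and the calls rest on the number of wells.

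When the cells were summed over the wells of a treatment, which gave 128 populations, 35 members could be tested. Of these, 0 were higher and 15 lower with Wnt plus, against 33.0% of 4619 genes that changed. Nusap1, untested by well, then had the largest fall, with a log2 change of -0.69 (SE 0.09, edgeR adjusted p = 1.14e-11). Ckap2l, a spindle protein of neural progenitors, followed at -0.49 (SE 0.09, edgeR adjusted p = 8.49e-06), and Hmmr, a spindle-pole receptor of hyaluronan, at -0.41 (SE 0.08, edgeR adjusted p = 4.11e-06). This summing was chosen after the data were seen. By well, DESeq2, which was run on all 39, called 18 members lower. Kif20b, also untested by well in edgeR, changed by -0.17 over the summed populations (SE 0.07, edgeR adjusted p = 0.0686), which did not pass.

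From the undirected start of the mixed experiment, 2 of 39 members were higher and 13 lower with Wnt plus, against 36.1% of 8791 genes that changed and 19.4% that were lower. The median log2 change was -0.17 over the members and -0.01 over all genes. Nusap1 ranged from 9.81 to 48.0 CPM (median 31.1) over 30 Wnt plus wells, against 34.6 to 79.4 CPM (median 52.4) over 32 Wnt minus wells. With a log2 change of -0.71 (SE 0.10, edgeR adjusted p = 1.13e-09), it was lower in 15 of 15 pairs, although the groups overlapped. Ect2, the exchange factor that starts the cleavage furrow, ranged from 0 to 65.7 CPM (median 41.6) with Wnt plus, against 30.8 to 101 CPM (median 62.4) with Wnt minus. It changed by -0.69 (log2, SE 0.09, edgeR adjusted p = 3.57e-10) and was also lower in 15 of 15 pairs. Ckap2l had medians of 25.5 CPM with Wnt plus and 35.3 CPM with Wnt minus (log2 -0.54, SE 0.12, edgeR adjusted p = 7.78e-05).

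The 2 members that rose from this start were Kif20b, a kinesin of the spindle midzone, and Cenpe, the kinetochore motor that aligns chromosomes. Kif20b ranged from 35.4 to 107 CPM (median 61.1) with Wnt plus, against 20.3 to 110 CPM (median 43.9) with Wnt minus, a log2 change of 0.42 (SE 0.09, edgeR adjusted p = 7.49e-05). It was higher in 14 of 15 pairs. Cenpe changed by 0.21 (log2, SE 0.08, edgeR adjusted p = 0.0204) and was higher in 12 of 15 pairs, and it did not pass without the filter on low counts (0.17). Cenpe was among the members that fell in the mesendoderm wells (log2 -0.20, SE 0.07, edgeR adjusted p = 0.0137), so its sign differed between these libraries. Mki67 changed by -0.42 (SE 0.10, edgeR adjusted p = 0.000458), Top2a by -0.28 (SE 0.05, edgeR adjusted p = 2.85e-06) and Cdk1 by -0.23 (SE 0.09, edgeR adjusted p = 0.046). Ccnb1 changed by -0.18 (SE 0.09) and did not pass (edgeR adjusted p = 0.0951).

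From the mesendoderm start, 1 of 39 members was higher and 21 lower with Wnt plus, against 41.1% of genes that changed and 21.2% that were lower, with medians of -0.18 over the members and -0.01 over all genes. Ckap2l ranged from 11.3 to 47.6 CPM (median 23.7) over 32 Wnt plus wells, against 20.9 to 69.0 CPM (median 36.7) over 32 Wnt minus wells (log2 -0.61, SE 0.09, edgeR adjusted p = 2.44e-09). Anln, the anillin scaffold of the contractile ring, ranged from 15.1 to 40.2 CPM (median 25.3), against 23.2 to 54.5 CPM (median 36.1), with a log2 change of -0.59 (SE 0.08, edgeR adjusted p = 7.16e-10). Both were lower in 15 of 16 pairs, and their groups overlapped. Hmmr changed by -0.43 (SE 0.06, edgeR adjusted p = 1.21e-09), with 15 of 16 pairs lower. Aurka, the Aurora A kinase of the spindle poles, changed by -0.39 (SE 0.08, edgeR adjusted p = 9.04e-06) and was lower in 16 of 16 pairs, as was Cdca3 at -0.27 (SE 0.05, edgeR adjusted p = 4.37e-06). Kif20b was the member that rose, by 0.17 (SE 0.07, edgeR adjusted p = 0.0438), with 12 of 16 pairs higher, and this call did not hold with DESeq2 (log2 0.15).

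Here Mki67 changed by -0.43 (log2, SE 0.08, edgeR adjusted p = 4.6e-07) and Nusap1 by -0.42 (SE 0.08, edgeR adjusted p = 2.84e-06). Ccnb1 changed by -0.37 (SE 0.07, edgeR adjusted p = 9.7e-06), Cdk1 by -0.24 (SE 0.07, edgeR adjusted p = 0.00492) and Top2a by -0.16 (SE 0.05, edgeR adjusted p = 0.00179). These values stand beside the undirected ones without a claim of difference, which only the test by start below gives. The plot of levels shows 6 of the members in every germ layer condition and mixed well.

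**Figure D2:**
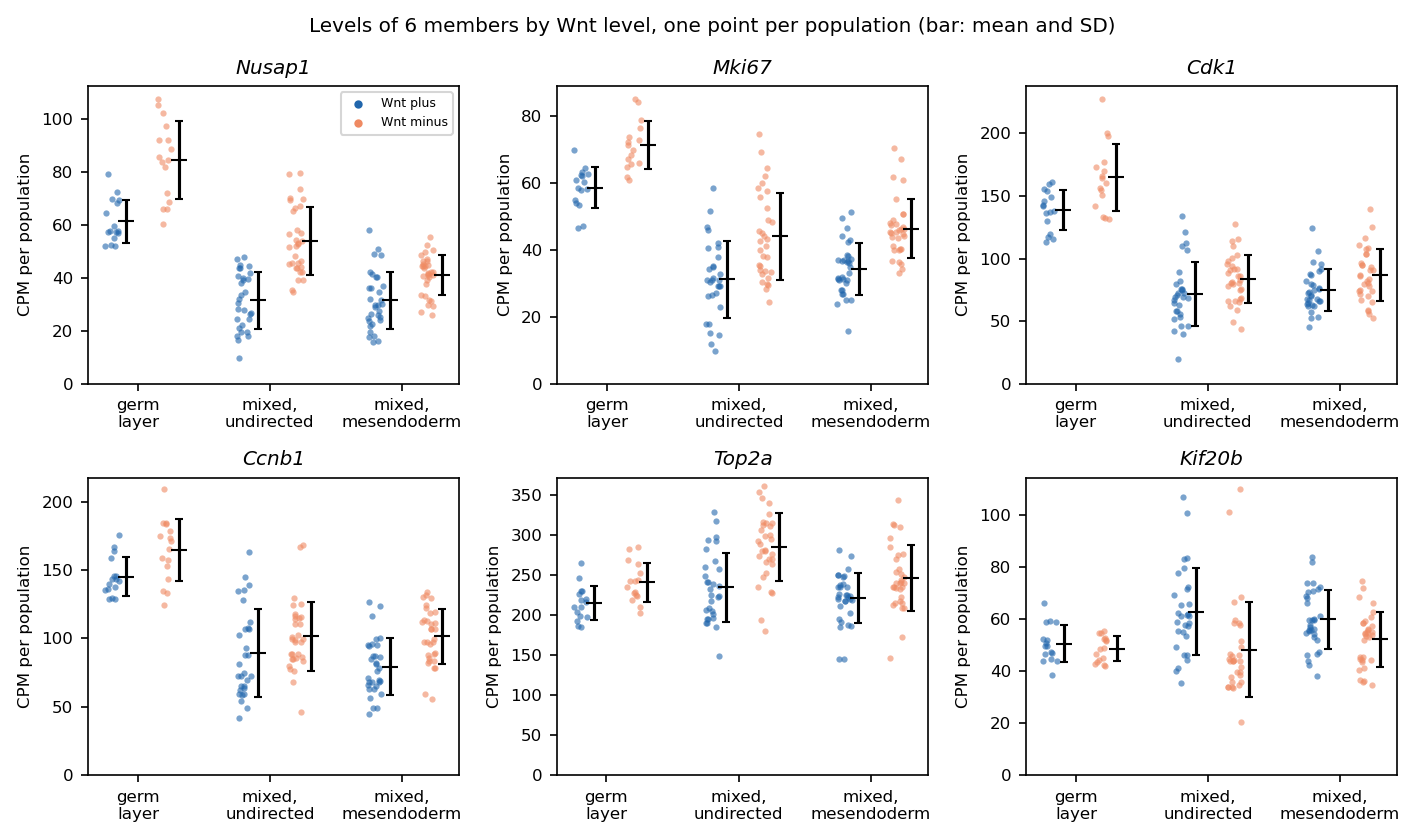
Level in CPM (y axis) of Nusap1, Mki67, Cdk1, Ccnb1, Top2a and Kif20b in each germ layer condition and each treated mixed well (1 point each), with Wnt plus left of Wnt minus in each setting and bars for the mean and SD. The groups overlap in every panel, the mean of Nusap1 being 31.4 CPM with Wnt plus and 53.9 CPM with Wnt minus from the undirected start.

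Each member was placed in 1 role, so Kif20b, a kinesin of the spindle midzone, and Kif23 count as kinesins and not under cytokinesis. By this division, spindle assembly and cytokinesis had the largest median changes with Wnt in the germ layer and from both mixed starts. Cytokinesis held Anln and Ect2 alone, so the order of roles depends on the division. Of all genes, 11.9% were lower in the germ layer, 19.4% from the undirected and 21.2% from the mesendoderm start. Of the 7 spindle assembly genes, 4 fell in the germ layer, 4 from the undirected and 5 from the mesendoderm start, with median log2 changes of -0.19, -0.27 and -0.38. Both cytokinesis genes fell in all 3 settings, with medians of -0.28, -0.54 and -0.47. The 6 cyclins and Cdk1 genes had medians of -0.09, -0.07 and -0.15, and 2, 1 and 3 of them fell. Of the 5 centromere and kinetochore genes, 1, 0 and 1 fell, with medians of -0.06, 0.04 and -0.02. The mesendoderm wells differed in this, since there 3 of 3 tested centromere and kinetochore genes fell (median -0.17), as did 3 of 3 of chromosome structure (median -0.14). The sole spindle assembly gene tested there, Tpx2, changed by -0.11 and did not pass. Of the 4 kinesins, 0, 1 and 2 fell and 0, 1 and 1 rose. Cks2, Ccna2, Ccnb2, Bub1b, Ttk, Ube2c, Cenpa, Ndc80, Cdca8, Gtse1, Ckap2 and Smc4 did not pass in the germ layer or from either start, and the fitted change of Cks2 was -0.03, -0.11 and -0.08.

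Of the 39 members, 9 were lower in the germ layer and from both starts (Nusap1, Ckap2l, Tpx2, Ect2, Cdca3, Mki67, Cdk1, Anln and Top2a). That is 23.1% of the members, against 6.51% of the 8698 genes tested in these comparisons. With the mesendoderm experiment added, 17 members could be compared, and 4 of them (23.5%), Cdca3, Mki67, Cdk1 and Top2a, were lower in all 4 settings, against 5.85% of 2323 genes. The 2 mixed settings come from 1 library.

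Other genes of mitosis and G2/M also had negative medians with Wnt. Of 55 further G2/M genes tested in the germ layer, such as Prc1, Lbr and Tubb4b, 1 was higher and 15 lower with Wnt plus, with a median log2 change of -0.10. Of 53 in the mixed experiment, 2 were higher and 17 lower from the undirected start (median -0.15), and 1 was higher and 21 lower from the mesendoderm start (median -0.17). Of the 17 tested in the mesendoderm experiment, 1 was higher and 6 lower. The shares called, 29.1%, 35.8%, 41.5% and 41.2% in this order, were near those of all genes given above (23.9%, 36.1%, 41.1% and 39.6%). The shares that were lower were 27.3%, 32.1%, 39.6% and 35.3%, against 11.9%, 19.4%, 21.2% and 19.6% of all genes. Among 30 S phase genes, 1 was higher and 1 lower in the germ layer, 8 and 5 from the undirected and 2 and 6 from the mesendoderm start. Their medians were -0.02, 0.03 and -0.04, while 1 of 18 was higher and 5 lower in the mesendoderm experiment.

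Scored cell by cell, fewer members were detected per cell with Wnt plus, in every matched pair of the germ layer and mixed settings and in 46 of 61 pairs of the mesendoderm wells. The members' summed level was lower in 16 of 16 germ layer pairs and 46 of 61 pairs of mesendoderm wells. In the mixed experiment it was lower in 13 of 15 pairs of the undirected and 14 of 16 of the mesendoderm start. A cell's score is the number of the 39 members with at least 1 UMI after thinning to 5000 UMIs, which left out 165 germ layer, 191 mesendoderm and 0 mixed cells as too shallow. In the germ layer the mean per condition ranged from 11.8 to 13.98 (median 13.0) with Wnt plus, against 13.3 to 14.9 (median 14.4) with Wnt minus. It averaged 13.0 ± 0.45 members with Wnt plus and 14.3 ± 0.45 with Wnt minus (SD, n = 16 each), a difference of -9.25%, with 16 of 16 pairs lower and a narrow overlap. In the mesendoderm wells the means were 10.4 ± 1.77 and 11.7 ± 1.97 members with Wnt plus and minus (n = 148 and 152), or -11.3%. Wells of the undirected start had 10.8 ± 1.42 with Wnt plus and 12.4 ± 0.86 with Wnt minus (-13.1%, 15 of 15 pairs lower). These Wnt plus wells held fewer cells, 15.1 ± 6.56 per well, against 30.2 ± 13.2 per Wnt minus well, and the part of this in the score was not tested. Wells of the mesendoderm start had 10.1 ± 0.72 with Wnt plus and 11.7 ± 0.85 with Wnt minus (-13.7%, 16 of 16 pairs lower).

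**Figure D3:**
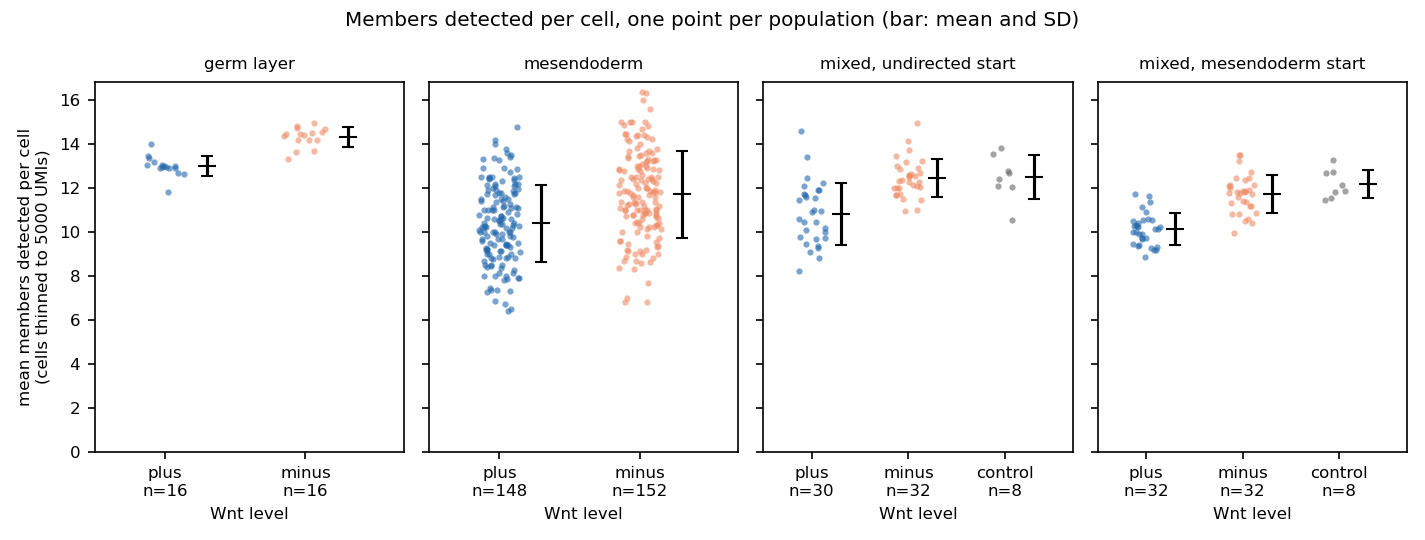
Mean number of the 39 members detected per cell at 5000 UMIs (y axis), 1 point per condition or well, with Wnt plus left of Wnt minus in each setting and control wells of each start in the mixed experiment at the right. Bars give the mean and SD, and the germ layer means are 13.0 with Wnt plus and 14.3 with Wnt minus.

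The shift ran through the whole range of cells. In the germ layer the lower quartile of a condition's cells averaged 9.92 ± 0.67 members with Wnt plus and 11.4 ± 0.61 with Wnt minus, and the upper quartile 15.8 ± 0.40 and 17.0 ± 0.59 in the same order of groups. The 90th percentile averaged 18.9 ± 0.60 members with Wnt plus and 19.8 ± 0.68 with Wnt minus. Fewer cells in G2/M and less RNA of these genes per cell cannot be told apart from summed counts, and the score did not separate them. UMIs of the members per 5000 differed by -12.0% in the germ layer, -13.2% in the mesendoderm, -15.9% from the undirected and -17.0% from the mesendoderm start. UMIs of S phase genes at the same depth differed by -4.16%, -3.71%, -8.84% and -12.8% in the same order. Mean UMIs per cell were 16529 with Wnt plus and 16654 with Wnt minus in the germ layer, and 22477 and 20695 from the undirected start. Mitochondrial RNA took 3.49% of UMIs with Wnt plus and 3.50% with Wnt minus in the germ layer.

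Lineage markers moved with Wnt in the same populations. With Wnt plus, 0 of 10 general pluripotency genes rose and 6 fell in the germ layer, and their sums ran from 526.2 to 1611 CPM with Wnt plus, against 649 to 2246 CPM with Wnt minus. Of 7 tested genes of the primitive streak and mesendoderm, such as T and Eomes, 4 rose and 0 fell, with sums of 50.2 to 1085 CPM with Wnt plus and 34.5 to 329.5 CPM with Wnt minus. All 5 such genes tested from the undirected start rose, and they summed to 15.3 to 714 CPM with Wnt plus, against 11.04 to 121 CPM with Wnt minus. Of these 2 lists, none was at 0 in all germ layer conditions. Among genes of CDK inhibitors, Cdkn1a rose with Wnt plus in the germ layer (log2 0.57, SE 0.06, edgeR adjusted p = 3.67e-09). Cdkn1b (-0.73, SE 0.18, edgeR adjusted p = 0.00307) and Cdkn2d (-0.31, SE 0.07, edgeR adjusted p = 0.00118) fell there. In mesendoderm wells Cdkn1a rose by 1.05 (SE 0.06, edgeR adjusted p = 2.22e-42). The part of cell identity or of these inhibitors in the fall of the members was not tested.

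Bmp plus against minus split the members in the germ layer experiment. With Bmp plus, 4 of 39 were higher and 14 lower (46.2% called), against 43.1% of all genes that changed, so the share called was near that of genes at large. The median log2 change was -0.04 over the members and 0.00 over all genes. Ckap2, a spindle protein, ranged from 37.0 to 64.7 CPM (median 49.4) over 16 Bmp plus conditions, against 52.0 to 83.6 CPM (median 65.5) over 16 Bmp minus conditions (log2 -0.40, SE 0.06, edgeR adjusted p = 2.25e-06). Cdc20, the activator of the anaphase-promoting complex, ranged from 188 to 276 CPM (median 218), against 231 to 305 CPM (median 261), with a log2 change of -0.28 (SE 0.04, edgeR adjusted p = 2.53e-07). Both were lower in 16 of 16 pairs, and the groups of each overlapped. Aurka changed by -0.39 (log2, SE 0.07, edgeR adjusted p = 2.95e-05) and was lower in 15 of 16 pairs.

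The 4 that rose with Bmp were Anln, Ckap2l, Cdca3 and Mki67, which all fell with Wnt in the same conditions. Anln averaged 33.9 ± 7.56 CPM with Bmp plus and 26.9 ± 5.44 CPM with Bmp minus (SD, n = 16 each), with a log2 change of 0.30 (SE 0.09, edgeR adjusted p = 0.00742) and 14 of 16 pairs higher. Ckap2l changed by 0.26 (SE 0.07, edgeR adjusted p = 0.00258), Cdca3 by 0.18 (SE 0.04, edgeR adjusted p = 0.000318) and Mki67 by 0.17 (SE 0.05, edgeR adjusted p = 0.00362). Ccnb1 changed by -0.20 (SE 0.05, edgeR adjusted p = 0.000431) and Cdk1 by -0.21 (SE 0.06, edgeR adjusted p = 0.00629), while Top2a did not pass (-0.04, SE 0.04). By role, 4 of the 6 mitotic and checkpoint kinases (Aurka, Bub1, Aurkb and Plk1) and 3 of the 6 cyclins and Cdk1 genes (Cdk1, Ccnb1 and Cks2) fell. None of the 5 centromere and kinetochore genes changed by edgeR.

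The score moved little with Bmp in the germ layer, at 13.5 ± 0.81 members per cell with Bmp plus and 13.7 ± 0.80 with Bmp minus (-1.51%, 9 of 16 pairs lower). S phase UMIs differed by -12.9%, and 0 of 30 S phase genes rose and 20 fell, among them Mcm3 at -0.30 (SE 0.04, edgeR adjusted p = 6e-08) and Gins2 at -0.36 (SE 0.05, edgeR adjusted p = 1.04e-07), both of the replicative helicase. Of 6 tested genes of CDK inhibitors, 4 rose and 1 fell, with Cdkn2b at 1.59 (SE 0.18, edgeR adjusted p = 6.75e-09). The gene that fell was Cdkn1a, at -0.46 (SE 0.06, edgeR adjusted p = 7.67e-08). Mean UMIs per cell were 17330 with Bmp plus and 15852 with Bmp minus, and with mean UMIs as a covariate 2 members were higher and 8 lower. Anln (0.19) and Ckap2l (0.18) then did not pass. Surface ectoderm genes, such as Tfap2a and Krt8, summed to 1362 to 2438 CPM with Bmp plus, against 412 to 1008 CPM with Bmp minus, and all 8 rose. The part of depth or of cell identity was not tested.

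In the other settings Bmp moved few members. From the undirected start 5 of 39 were higher and 0 lower, against 7.81% of genes that changed, and 3 were higher without the cells of highest UMI counts. Ckap2l rose most, by 0.42 (log2, SE 0.11, edgeR adjusted p = 0.00647), followed by Ccnb2, the second cyclin B, at 0.26 (SE 0.07, edgeR adjusted p = 0.00828) and Tpx2 at 0.23 (SE 0.07, edgeR adjusted p = 0.0197). Tpx2 ranged from 69.3 to 172 CPM (median 99.4) with Bmp plus, against 44.3 to 127 CPM (median 86.0) with Bmp minus, and was higher in 14 of 15 pairs. From the mesendoderm start 0 were higher and 2 lower, against 10.7% of genes that changed. These were Ckap2 (log2 -0.27, SE 0.08, edgeR adjusted p = 0.00901, 16 of 16 pairs lower) and Cenpa, the histone variant of centromeres (-0.18, SE 0.05, edgeR adjusted p = 0.00632, 14 of 16 pairs lower). In the mesendoderm wells edgeR called 0 of 17 members, 6 had an unadjusted p under 0.05, and DESeq2 called 1 of 39 higher and 1 lower, against 29.3% of genes by edgeR. Summed by treatment, 1 of 35 members was higher and 3 lower, against 21.1% of genes, with Ckap2 again lowest at -0.52 (SE 0.08, edgeR adjusted p = 8.65e-08).

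Members called with retinoic acid went in both directions in the germ layer and mixed experiments. By edgeR, the share called was below that of all genes in the germ layer and in mesendoderm wells. With RA plus, 2 of 39 were higher and 2 lower in the germ layer (10.3% called), against 27.7% of genes that changed. Hmmr ranged from 61.0 to 91.4 CPM (median 70.1) over 16 RA plus conditions, against 50.0 to 67.8 CPM (median 60.7) over 16 RA minus conditions (log2 0.25, SE 0.05, edgeR adjusted p = 0.000349, 15 of 16 pairs higher). Ckap2 rose by 0.26 (SE 0.06, edgeR adjusted p = 0.00158). Birc5 changed by -0.09 (SE 0.03, edgeR adjusted p = 0.00955) and Top2a by -0.10 (SE 0.04, edgeR adjusted p = 0.0428), and neither passed with mean UMIs per cell as a covariate. Cdk1, Ccnb1 and Mki67 did not pass, with log2 changes of -0.03 (SE 0.06), -0.12 (SE 0.05) and 0.02 (SE 0.05). In the mesendoderm wells edgeR called 0 of 17 members, 2 had an unadjusted p under 0.05 and DESeq2 called 3 of 39 higher, against 21.9% of genes by edgeR. Summed by treatment, 3 of 35 were higher and 0 lower, against 16.4% of genes, with Ckap2 at 0.45 (SE 0.08, edgeR adjusted p = 4.03e-06) and Hmmr at 0.21 (SE 0.08, edgeR adjusted p = 0.0455).

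In the mixed experiment the shares of members called with RA, 38.5% from the undirected and 25.6% from the mesendoderm start, were near those of all genes. With RA plus, 10 of 39 were higher and 5 lower from the undirected start, against 34.3% of genes that changed. Smc4, the core of condensin, ranged from 127 to 312 CPM (median 199) with RA plus, against 58.9 to 239 CPM (median 157) with RA minus (log2 0.33, SE 0.06, edgeR adjusted p = 1.14e-06, 13 of 15 pairs higher). Ckap2l changed by 0.45 (SE 0.11, edgeR adjusted p = 0.000436) and Ndc80, a subunit of the kinetochore's microtubule clamp, by 0.47 (SE 0.14, edgeR adjusted p = 0.00583). The members that fell included Plk1, the Polo kinase of mitotic entry, at -0.33 (SE 0.11, edgeR adjusted p = 0.0106), Ccnb1 at -0.33 (SE 0.09, edgeR adjusted p = 0.00137) and Gtse1 at -0.27 (SE 0.08, edgeR adjusted p = 0.00739). With RA plus, 4 were higher and 6 lower from the mesendoderm start, against 30.0% of genes that changed. Aurka ranged from 15.9 to 71.8 CPM (median 38.7) with RA plus, against 31.2 to 81.7 CPM (median 50.9) with RA minus, and was lower in 16 of 16 pairs (log2 -0.37, SE 0.08, edgeR adjusted p = 3.87e-05). Anln changed by -0.33 (SE 0.08, edgeR adjusted p = 0.000801) and Ccnb1 by -0.28 (SE 0.07, edgeR adjusted p = 0.00151), while Smc4 rose by 0.16 (SE 0.05, edgeR adjusted p = 0.00663) and Ect2 by 0.21 (SE 0.07, edgeR adjusted p = 0.0206). Across both starts, Ccnb1, Plk1, Aurka and Cks2 fell and Smc4, Cdca3 and Cenpe rose.

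Tgfb, Fgf, Notch and Shh moved few members. With Tgfb plus, 1 of 39 was higher and 1 lower in the germ layer, against 7.02% of genes that changed. These were Top2a, which averaged 239 ± 28.5 CPM with Tgfb plus and 216 ± 18.1 CPM with Tgfb minus (log2 0.14, SE 0.04, edgeR adjusted p = 0.019, 14 of 16 pairs higher), and Cdca3 (log2 -0.12, SE 0.04, edgeR adjusted p = 0.0436). Cdca3 did not pass under 4 other settings, and Top2a not with mean UMIs as a covariate. The mesendoderm wells used were uneven for this signal, with 108 Tgfb plus and 192 Tgfb minus wells. In the mesendoderm wells 0 of 17 were higher and 3 lower, against 10.1% of genes that changed: Ube2c (log2 -0.24, SE 0.08, edgeR adjusted p = 0.0326), Ccnb1 (-0.18, SE 0.06, edgeR adjusted p = 0.0498) and Birc5 (-0.14, SE 0.04, edgeR adjusted p = 0.00834). DESeq2 called 1 of 39 lower, and summed by treatment 2 of 35, Birc5 and Ccnb1, were lower, against 7.38% of genes. From the undirected start edgeR and DESeq2 called 0 of 39 and 5 had an unadjusted p under 0.05, against 4.14% of genes called by edgeR. From the mesendoderm start 1 was lower, against 6.96% of genes, which was Ckap2l (log2 -0.34, SE 0.09, edgeR adjusted p = 0.00461, 14 of 16 pairs lower).

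With Fgf plus, 1 of 39 members was higher and 1 lower in the germ layer, against 7.93% of genes that changed. Cdc20 ranged from 191 to 305 CPM (median 260) with Fgf plus, against 188 to 294 CPM (median 227) with Fgf minus (log2 0.14, SE 0.04, edgeR adjusted p = 0.0196, 14 of 16 pairs higher). Ckap2l changed by -0.22 (SE 0.07, edgeR adjusted p = 0.0384). In the mesendoderm wells 1 of 17 was higher, against 9.28% of genes that changed, which was Cenpf at 0.21 (SE 0.06, edgeR adjusted p = 0.0141). In wells of at least 10 cells it did not pass (0.15). Summed by treatment it was again the sole member called of 35, at 0.21 (SE 0.06, edgeR adjusted p = 0.0135), against 5.22% of genes. From the undirected start 1 of 39 was higher and 3 lower, against 13.3% of genes that changed, with Cenpf here at -0.19 (SE 0.06, edgeR adjusted p = 0.0211). From the mesendoderm start 0 were higher and 2 lower, against 13.6% of genes, with Top2a at -0.19 (SE 0.05, edgeR adjusted p = 0.00127) and Cenpf at -0.17 (SE 0.05, edgeR adjusted p = 0.0173). The sign of the Cenpf change thus differed between the mesendoderm and the mixed experiment, which were separate libraries.

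Notch and Shh were given in the mesendoderm experiment alone. For Notch edgeR called 0 of 17 members, 0 of which had an unadjusted p under 0.05, and DESeq2 called 0 of 37, against 1.16% of genes called by edgeR. For Shh edgeR called 0 of 17, 3 of which had an unadjusted p under 0.05, and DESeq2 called 0 of 39, against 0.043% of genes by edgeR. The plot of all comparisons sets these values beside those of the other signals.

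**Figure D4:**
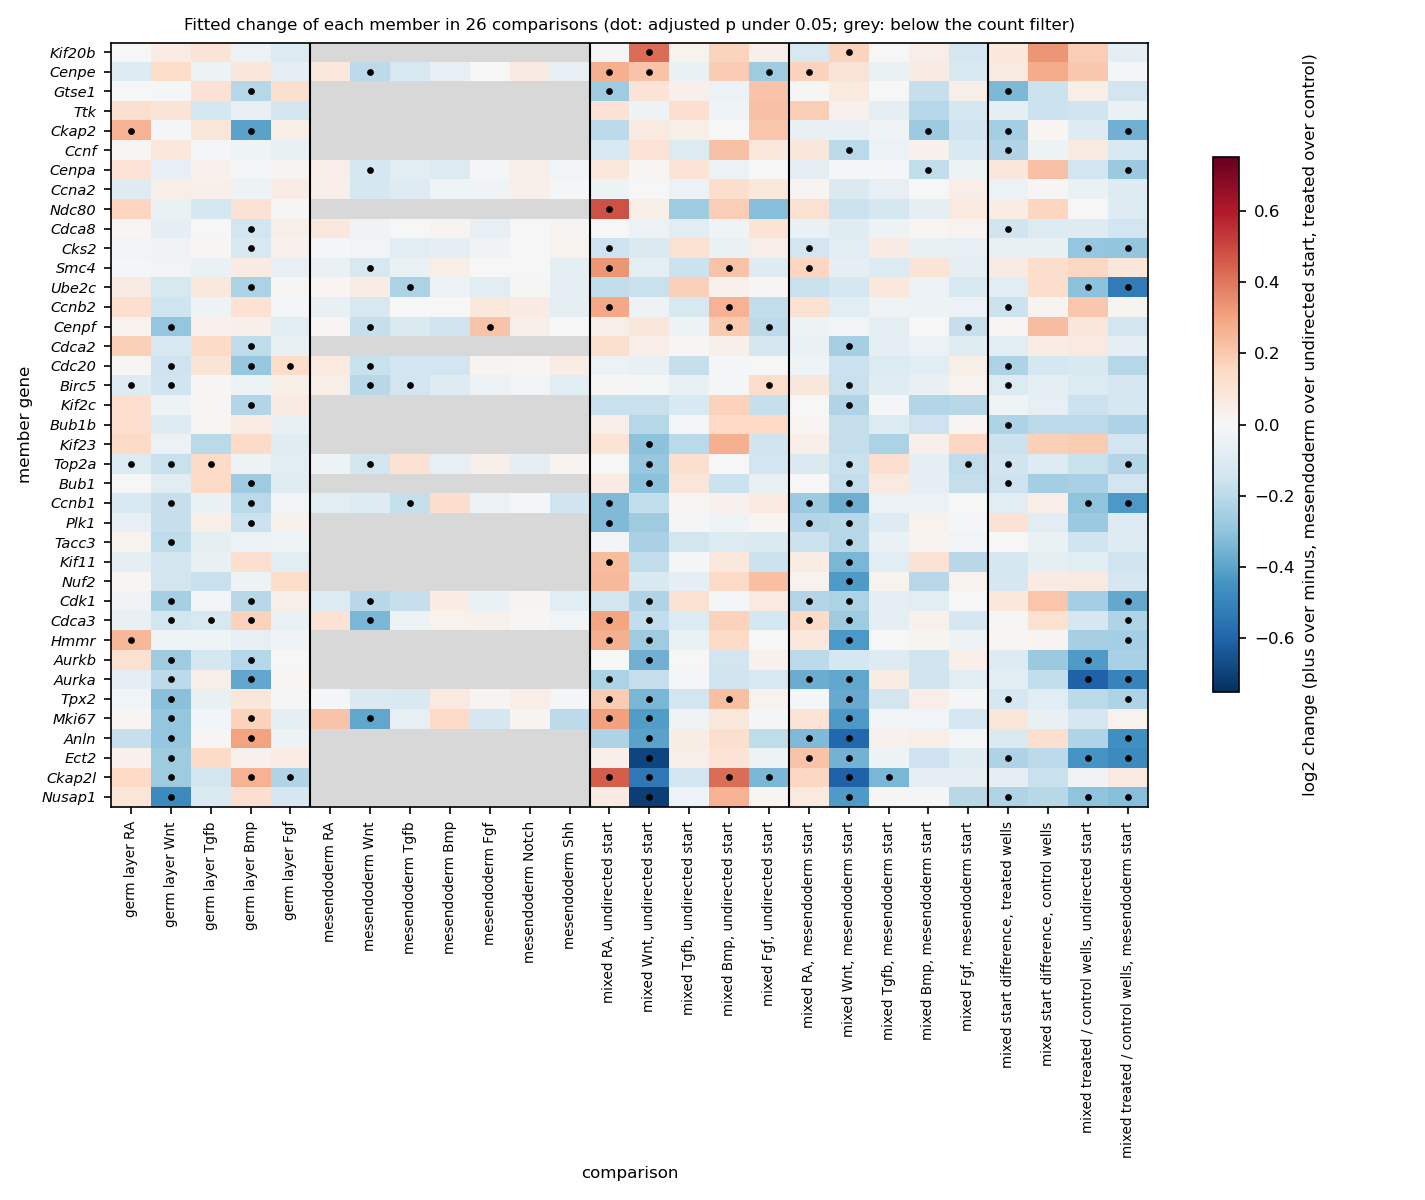
Fitted log2 change (colour) of each of the 39 members (y axis, in the order of the plot of Wnt changes) in each of 26 comparisons (x axis), with a dot where the adjusted p is under 0.05 and grey where a member was below the count filter. The Wnt columns are mostly blue (lower with Wnt plus), with Kif20b red in the mixed ones, and the Notch and Shh columns hold no dot.

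Several members differed by start state. Over treated wells, 0 of 39 members were higher and 13 lower with the mesendoderm start than with the undirected start, against 25.6% of genes that differed. Gtse1 ranged from 17.3 to 71.1 CPM (median 40.7) over 64 mesendoderm start wells, against 8.92 to 88.5 CPM (median 51.6) over 62 undirected start wells (log2 -0.34, SE 0.06, edgeR adjusted p = 4.98e-07). Ckap2 differed by -0.26 (SE 0.06, edgeR adjusted p = 0.000544), Cdc20 by -0.23 (SE 0.06, edgeR adjusted p = 0.00102) and Top2a by -0.15 (SE 0.03, edgeR adjusted p = 0.000497). Cdk1 and Mki67 did not pass, at 0.08 (SE 0.06) and 0.09 (SE 0.06). Between the 8 control wells of each start edgeR and DESeq2 called 0 of 39, against 8.57% of genes by edgeR. There, 4 members had an unadjusted p under 0.05 and all were higher with the mesendoderm start. The nearest were Cenpe, at 80.7 ± 7.74 CPM with the mesendoderm start and 65.4 ± 13.4 CPM with the undirected start (log2 0.28, SE 0.12, edgeR adjusted p = 0.126), and Kif20b (0.33, SE 0.14, edgeR adjusted p = 0.128).

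The score averaged 10.9 ± 1.12 members per cell with the mesendoderm start and 11.7 ± 1.41 with the undirected start over treated wells (-6.35%). Over control wells it was 12.2 ± 0.65 with the mesendoderm start and 12.5 ± 1.01 with the undirected start (-2.47%, SD, n = 8 each). The mesendoderm start also meant a further 24 h in signals before the treatment, and the time in culture and the start cannot be told apart. Treated wells held 42.2 ± 19.6 cells with the mesendoderm start and 22.9 ± 12.9 with the undirected start, and the part of this was not tested.

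Treated wells held less of some members than the control wells of their own start. From the undirected start 0 of 39 were higher and 7 lower in treated than in control wells, against 19.3% of genes that differed, so the share of members called (17.9%) was near that of genes at large, and DESeq2 called 4 lower. Of the members, 0 were higher and 14 lower (35.9%) from the mesendoderm start, against 15.5% of genes. The medians were -0.12 and -0.15 over the members and 0.01 in each over all genes. A treated well here stands for the mean of all combinations, so the comparison averages over plus and minus of every signal. Treated wells held fewer cells, 22.9 ± 12.9 against 35.0 ± 6.52 per control well of the undirected start. For the mesendoderm start they held 42.2 ± 19.6, against 57.5 ± 11.6 per control well. The part of this was not tested.

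Aurka ranged from 26.4 to 96.7 CPM (median 48.6) over 62 treated wells of the undirected start, against 53.1 to 106 CPM (median 73.1) over 8 control wells (log2 -0.61, SE 0.11, edgeR adjusted p = 5.57e-06). From the mesendoderm start it ranged from 15.9 to 81.7 CPM (median 43.1) over 64 treated wells, against 54.2 to 72.8 CPM (median 64.1) over 8 control wells (-0.50, SE 0.10, edgeR adjusted p = 2.42e-05). The ranges overlapped at both starts. Ect2 differed by -0.44 (SE 0.11, edgeR adjusted p = 0.000987) from the undirected and -0.48 (SE 0.09, edgeR adjusted p = 4.86e-05) from the mesendoderm start. Ube2c had medians of 152 CPM in treated and 206 CPM in control wells of the mesendoderm start (-0.53, SE 0.09, edgeR adjusted p = 6.71e-06), and differed by -0.31 (SE 0.11, edgeR adjusted p = 0.0263) from the undirected start. Aurkb, the Aurora B kinase of the chromosomal passenger complex, differed by -0.43 (SE 0.13, edgeR adjusted p = 0.00906) from the undirected start.

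Ccnb1 averaged 95.5 ± 29.3 CPM in 62 treated and 116 ± 28.2 CPM in 8 control wells of the undirected start (log2 -0.30, SE 0.11, edgeR adjusted p = 0.0359), and 90.4 ± 23.1 CPM in 64 treated and 120 ± 14.6 CPM in 8 control wells of the mesendoderm start (-0.43, SE 0.09, edgeR adjusted p = 0.000356). Cdk1 and Top2a passed from the mesendoderm start (-0.38, SE 0.09, edgeR adjusted p = 0.00176, and -0.22, SE 0.06, edgeR adjusted p = 0.0094) and not from the undirected start (-0.25, SE 0.11, edgeR adjusted p = 0.1, and -0.17, SE 0.07, edgeR adjusted p = 0.0655). Mki67, which fell with Wnt, did not pass from either start (-0.12, SE 0.12, and 0.03, SE 0.10). The score averaged 11.7 ± 1.41 members per cell in treated and 12.5 ± 1.01 in control wells of the undirected start (-6.63%), and 10.9 ± 1.12 in treated and 12.2 ± 0.65 in control wells of the mesendoderm start (-10.3%). General pluripotency genes fell beside them, 8 of 10 from the undirected and 9 of 10 from the mesendoderm start, with sums of 1343 to 4599 CPM in treated and 2666 to 3630 CPM in control wells of the undirected start. Their part was not tested.

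**Figure D5:**
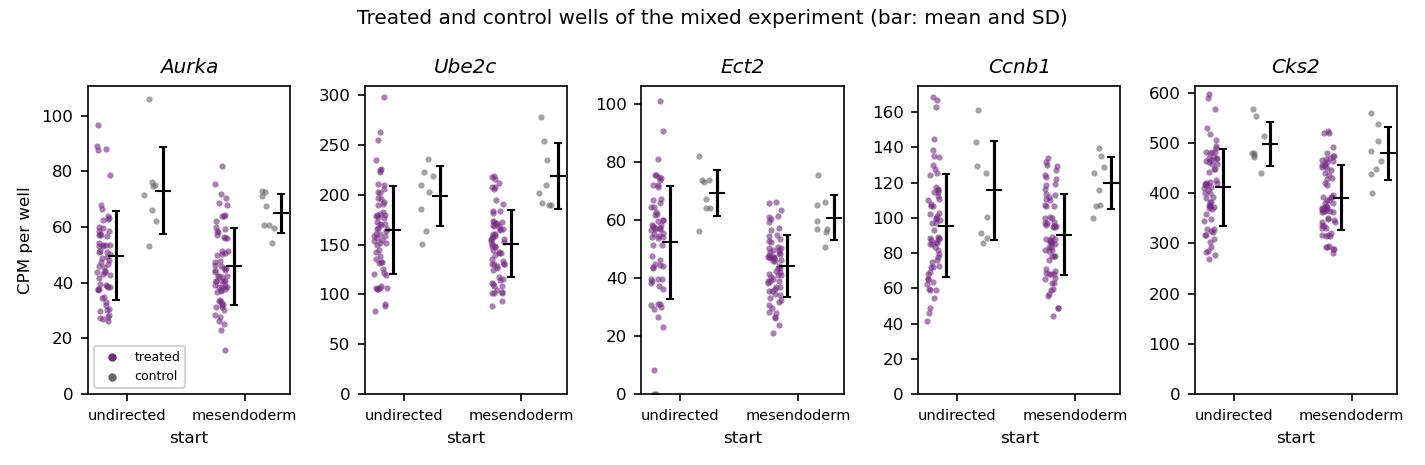
Level in CPM (y axis) of Aurka, Ube2c, Ect2, Ccnb1 and Cks2 in each well of the mixed experiment by start (x axis), with treated wells left of control wells and bars for the mean and SD. Mean levels of Aurka are 49.6 CPM in treated and 73.1 CPM in control wells of the undirected start, and treated wells spread further than control wells.

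Few members depended on a combination of signals. Over the 10 pairs of signals in the germ layer 4 tests of members passed, all in the negative direction, against 1.42% of all tests of genes. Ccnb2 passed for RA with Wnt, where 3.63% of genes did. With Wnt plus it averaged 138 ± 11.3 CPM with RA plus and 152 ± 16.9 CPM with RA minus, and with Wnt minus 183 ± 12.2 CPM with RA plus and 139 ± 18.1 CPM with RA minus (SD, n = 8 each). The interaction was -0.53 (log2, SE 0.08, edgeR adjusted p = 6.74e-05), and Ccnb2 was high where RA was given without Wnt. For RA with Bmp, where 3.01% of genes passed, Anln (-0.56, SE 0.16, edgeR adjusted p = 0.0396), Cdk1 (-0.33, SE 0.09, edgeR adjusted p = 0.0416) and Smc4 (-0.25, SE 0.07, edgeR adjusted p = 0.0332) passed. Anln did not pass without the cells of highest UMI counts (-0.51). With Bmp plus, Anln averaged 28.7 ± 3.05 CPM with RA plus and 39.1 ± 7.18 CPM with RA minus, and with Bmp minus 27.9 ± 5.17 CPM with RA plus and 25.96 ± 5.88 CPM with RA minus (SD, n = 8 each). P-values were adjusted within a pair of signals, not over the 10 pairs.

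In the mesendoderm wells 1 test of a member passed over 21 pairs, against 0.822% of all tests of genes. Mki67 passed for Wnt with Bmp, where 10.4% of genes did. With Bmp plus it averaged 55.1 ± 29.9 CPM with Wnt plus (n = 80) and 88.5 ± 48.0 CPM with Wnt minus (n = 77), and with Bmp minus 63.7 ± 30.3 CPM (n = 68) and 67.4 ± 34.4 CPM (n = 75) in the same order. The interaction was -0.58 (log2, SE 0.17, edgeR adjusted p = 0.0124), so the fall of Mki67 with Wnt was larger with Bmp plus. It did not pass over wells of at least 10 cells (-0.41). In the mixed experiment 1 test of a member passed over the 5 signals by start, against 3.02% of all tests. It was Birc5 for Wnt by start, where 7.77% of genes passed, with a difference of -0.16 (log2, SE 0.06, edgeR adjusted p = 0.05). Birc5 changed with Wnt by -0.17 (SE 0.04) from the mesendoderm and -0.01 (SE 0.04) from the undirected start. The difference did not pass without the filter on low counts (-0.12) or without the cells of highest UMI counts (-0.14).

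Transfection of barcodelets did not detectably move the members in bulk. At 24 h edgeR and DESeq2 called 0 of 39, against 0.0344% of 11631 genes called by edgeR, and at 72 h they called 0 of 39, against 0.0258%. At either time 0 members had an unadjusted p under 0.05. The fitted log2 changes ran from -0.27 to 0.27 at 24 h and from -0.43 to 0.51 at 72 h, with SEs of 0.21 to 0.26 for Cdk1, Ccnb1, Top2a, Mki67, Cenpa, Kif11 and Ccnf, which is more than the median changes of the members with Wnt. Cdk1 had 238 and 211 CPM in the libraries at 24 h and 204 and 356 CPM at 72 h, against 232 and 232 CPM in untransfected libraries. Mki67 had 44.8 and 46.5 CPM at 24 h and 39.3 and 26.9 CPM at 72 h, against 38.7 and 50.9 CPM untransfected. For Cdk1 the libraries at 72 h lay on either side of the untransfected ones, and for Mki67 1 of them lay between those and 1 below.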

How the data were processed

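Single-cell RNA was deposited by the authors as UMI counts per gene and cell, with barcodelet counts per cell, the fraction of these in the leading barcodelets, and the assignment of cells to conditions. Bulk 3' mRNA libraries were deposited as read counts per gene, with 2899646 to 5134534 reads per library. The build mm10 and the tools HTSeq 0.9.1, STAR 2.5.2b and Cell Ranger 1.3.1 stand in the submitters' processing notes with no role given. Cells with a passed assignment were used, with no doublet caller run, and no further normalization precedes the counts. Counts were summed per condition or well with at least 5 cells and fitted with edgeR 4.0.16 (quasi-likelihood test, TMM scaling, the tool's default filter on low counts) in R 4.3.3. The signals were coded 0.5 and -0.5, control wells had a term of their own, and Benjamini-Hochberg adjustment ran over all genes tested, 2-sided, with 0.05 as threshold. Pairs of conditions differ in 1 signal alone and describe direction only. Levels are CPM after TMM scaling. Droplet UMIs and 3' counts were not compared between genes. Alternatives were DESeq2 1.42.0 and its size factors, no filter, mean UMIs per cell as a covariate, cells above 2.5 times the median UMI count left out, wells of at least 10 cells, a replicate block and left-out bulk replicates. The edgeR steps were tested on simulated data. Scores, promoters and figures were made in Python 3.11.15 with numpy 2.4.6, pandas 2.3.3, scipy 1.17.1 and matplotlib 3.10.9.

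The members and the other gene lists were chosen with earlier results of these data known. All 39 members could be named. Full values were given for up to 3 members in each direction with the largest change among those called in a comparison, for the 2 of smallest p where none was called, and for Cdk1, Ccnb1, Top2a and Mki67. Sorted GFP libraries are not used here.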

Additional observations from a re-analysis of the deposited data

Results flagged for a closer look

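The highest and lowest values of members or of the score were examined 36 times within groups of 8 wells or conditions, and 6 times a value stood apart, meaning that its gap to the next value exceeded a share of 0.526 of the range. Chance gives about 1 in 20 in a single test, but these tests shared wells, and 3 of the 6 came from the same 8 control wells of the undirected start. In control wells of the undirected start, the highest well held 106 CPM of Aurka, against 76.2 CPM in the next (share 0.565), 157 CPM of Cdk1, against 97.0 CPM (0.651), and 60.9 CPM of Kif20b, against 49.2 CPM (0.556). In control wells of the mesendoderm start, the lowest well held 64.5 CPM of Cenpe, against 77.4 CPM in the next (0.533). In the germ layer, Smc4 reached 249 CPM in 1 of the 8 conditions with RA plus and Bmp plus (0.652) and 275 CPM in 1 of the 8 with RA minus and Bmp plus (0.538).

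In 6 tests of members the effect of a signal differed with a second signal or with the start by edgeR's interaction test. Of all tests of genes, 1.42% passed over the germ layer pairs, 0.822% over the mesendoderm pairs and 3.02% by start. Those of Anln, Mki67 and Birc5 did not pass under at least 1 alternative, as given above. With Wnt plus or minus, the effect of RA on Ccnb2 differed by -0.53 (log2) in the germ layer. With Bmp plus or minus, the effect of RA differed by -0.25 for Smc4, -0.33 for Cdk1 and -0.56 for Anln. The effect of Wnt on Mki67 differed by -0.58 with Bmp in mesendoderm wells, and that on Birc5 by -0.16 between the starts of the mixed experiment.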

How the results depend on the processing

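None of the 166 calls of members changed sign under any alternative that gave it a value. Some score differences near 0 did, with member UMIs per 5000 in place of members detected. These were Tgfb in the germ layer (-0.138% to 0.206%), and RA (-0.986% to 0.132%) and Tgfb (-0.983% to 0.205%) from the undirected start. In all, 259 of the values that answer a comparison stayed within 1.5 times the reported one, or for scores within 1 SD. Those that moved are counts of members called. Without the filter on low counts they were 2 for RA, 1 for Tgfb and 1 for Fgf in the germ layer, 1 for RA, 0 for Tgfb and 2 for Bmp and 2 for the pairwise tests in mesendoderm wells, and 1 for Tgfb from the undirected and 1 for Fgf from the mesendoderm start. With DESeq2 they were 3 for RA, 18 for Wnt, 1 for Tgfb and 2 for Bmp in mesendoderm wells and 4 for treated against control wells of the undirected start, and with its size factors in edgeR 1 for Tgfb in the germ layer. With mean UMIs per cell as a covariate they were 2 for RA, 1 for Tgfb and 10 for Bmp in the germ layer, and 3 for RA and 2 for Bmp in mesendoderm wells. Without the cells of highest UMI counts they were 1 for Tgfb in the germ layer, 1 for Bmp in mesendoderm wells, 3 for Bmp from the undirected start and 2 for signals by start. Over wells of at least 10 cells they were 1 for RA, 0 for Tgfb and 0 for Fgf in mesendoderm wells and 2 for signals by start, and with cells summed per treatment 3 for RA and 4 for Bmp. The cause was not tested. Of 166 calls of members, 134 were kept without the filter and 156 with DESeq2, with 0 changes of sign.

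Same-numbered wells had a median correlation of -0.006 in mesendoderm and 0.005 in mixed wells, against -0.005 and -0.031 for wells of other numbers. Mesendoderm wells of 1 number thus did not deviate together, while mixed wells of 1 number did so slightly. The main fit did not use the numbers as pairs. With the replicate number as a block, the members called were 1 for RA, 1 for Tgfb and 2 for Bmp in mesendoderm wells and 2 for Tgfb from the mesendoderm start. In bulk the numbers correlated at 0.109, -0.157 and -0.080, and the block, the crossed block and each left-out replicate called 0 to 0 members. Few cells per mesendoderm well (median 8) left 22 members untested there, and bulk had 2 libraries per group.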
